A study of Mus musculus with 24 samples.

Results

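The genes described are 10 rows of the deposited expression table, of 35974 gene symbols in all, chosen by name as regulators and enzymes of fatty acid synthesis: Srebf1, Mlxipl, Thrsp, Fasn, Acaca, Acacb, Acly, Scd1, Gpam and Aacs. They were followed in RNA from mouse liver, strain C3H/HeJ, in 24 libraries: wild type (WT) and transgenic (TGA), each with numbers 1 to 4 and with a title suffix of 2, 4 or 8, called class here. Each of the 6 groups of genotype and class holds 4 libraries. The labels do not explain the suffix; the series title concerns polyploid hepatocytes, so a reading as cellular DNA content is possible. They also do not name the transgene or its promoter, and give no age, sex, treatment or sorting step, so nothing more can be said of these mice as a model. Nothing in the labels says that the libraries of a group came from separate animals, so the p-values speak for the variation among these 24 libraries, part or all of which may be technical.

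Liver makes fatty acids from surplus carbohydrate. SREBP-1, the product of Srebf1, is a transcription factor that carries the insulin signal to this programme, and ChREBP, the product of Mlxipl, carries the sugar signal; Thrsp (Spot 14) is a small protein that both induce and that promotes the pathway. Acly splits citrate into cytosolic acetyl-CoA, the acetyl-CoA carboxylases Acaca and Acacb turn it into malonyl-CoA, and Fasn builds palmitate from that. Scd1 then introduces a double bond, Gpam attaches the acyl chain to glycerol 3-phosphate, and Aacs brings the ketone body acetoacetate back into lipid synthesis.

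The libraries were sparse. Values are log2(normalised count + 1), converted from the deposited natural log values, and the sequencing depth is unknown. Between 1624 and 15147 genes were above 0 per library. Actb, a gene every cell uses, was listed at 0 in 14 of the 24, so a listed 0 is no evidence that the gene was unexpressed. The commonest log2 value above 0 in a library ranged from 0.08 (WT number 1, classes 2 and 4) to 4.44 (TGA number 2 class 4). A 0 or a low value therefore need not mean the same in every library. Of the values of the 10 lipogenic genes, 47.9% were 0, against 54.1% of the values of the 4875 genes tested. Of 10 hepatocyte markers, Apoa1 and Trf, which encode an apolipoprotein and transferrin, were above 0 in 24 of 24 libraries, Alb and Cps1 in 19, Apob in 16, Tat in 13, Hnf4a in 12, Ttr in 11, Fgb in 10 and Serpina1a in 6. Fat cells also make these enzymes. Of 7 adipocyte markers, Plin1 was above 0 in 5 libraries (2 of them TGA class 2), Lep in 4 and Cfd in 1, and Adipoq, Retn, Fabp4 and Cidea were at 0 in 24 of 24. The adipocyte list's summed log2 value was between 0 and 4.24 per library, and its part in the results was not tested. Vsig4, Timd4 and Cd5l of the 8 Kupffer cell markers, Clec4g of the 8 endothelial markers, Spp1 of the 6 cholangiocyte markers, and Cd3g, Cd79a and Nkg7 of the 7 lymphocyte markers were also at 0 in all libraries, while each of the 8 stellate cell markers was above 0 in at least 1. The highest summed log2 value in a library was 15.39 for the Kupffer cell list, 12.82 for endothelial, 11.62 for stellate, 10.57 for cholangiocyte and 6.63 for lymphocyte markers, and each list was at 0 in other libraries.

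The number of lipogenic genes above 0 was highest in class 2 of TGA. It was 9, 9, 10 and 8 in TGA class 2, 2, 3, 5 and 3 in TGA class 4, and 4, 7, 7 and 6 in TGA class 8 (numbers 1 to 4 in each case). In WT it was 10, 7, 3 and 5 in class 2, 9, 4, 1 and 1 in class 4, and 1, 6, 2 and 3 in class 8. Class 2 of TGA thus lay above classes 4 and 8 of TGA, which shared part of their range, and the 3 WT groups overlapped. In the 3 WT libraries with a count of 1, the gene above 0 was Scd1.

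**Figure D1:**
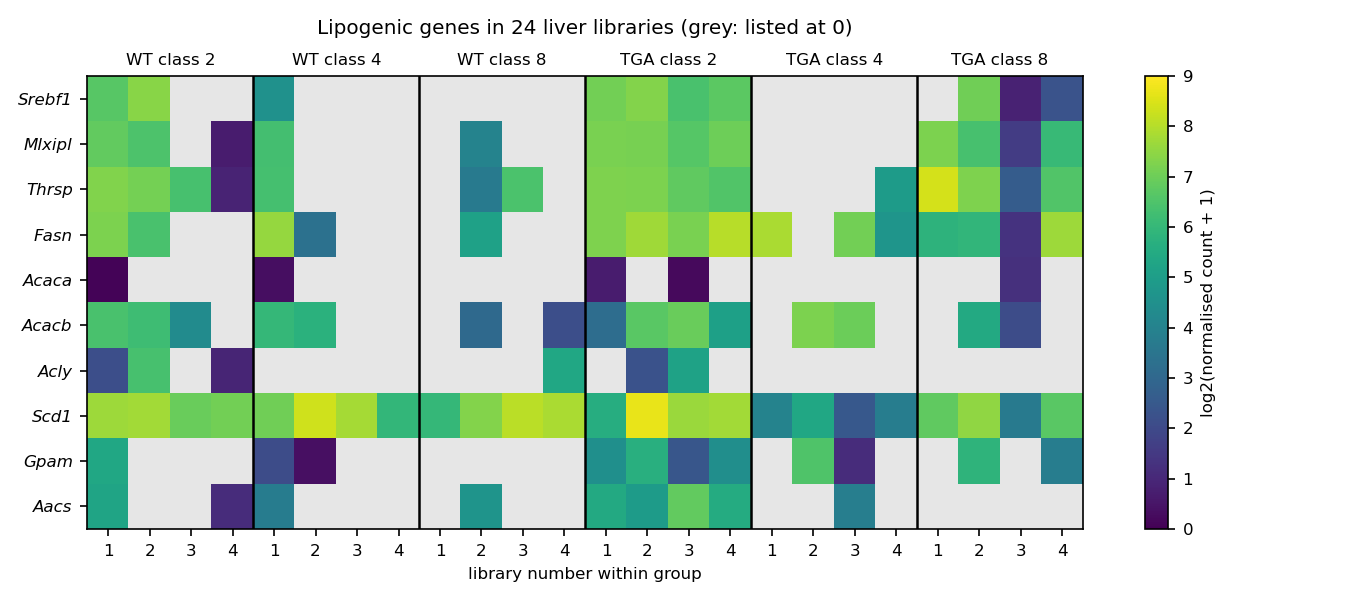
Values of the 10 genes (rows) in the 24 libraries (columns, by group and number) on the log2(normalised count + 1) scale, with values of 0 in grey. TGA classes 2, 4 and 8 are filled for 90%, 32.5% and 60% of their values, and WT classes 2, 4 and 8 for 62.5%, 37.5% and 30%.

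WT number 2 class 2 had 7 lipogenic genes with 2071 genes above 0, and WT number 4 class 2 had 5 with 7570. The libraries with the most genes above 0, WT number 1 class 2 (15147) and class 4 (14469), had 10 and 9. The part of detection in the count of lipogenic genes was not tested. TGA class 2 held 2816 to 6468 genes above 0, TGA class 4 held 1624 to 3440 and TGA class 8 held 2110 to 9096. Hepatocyte markers moved too: the summed log2 value of 10 of them was 76.36 to 86.83 in TGA class 2, 45.05 to 60.38 in TGA class 4 and 41.17 to 81.44 in TGA class 8. In WT these sums were 29.55 to 78.92, 17.47 to 79.15 and 19.37 to 42.22 in classes 2, 4 and 8. Their part in the lipogenic differences was not tested, and in bulk RNA fewer cells of a type and less RNA per cell cannot be told apart.

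**Figure D2:**
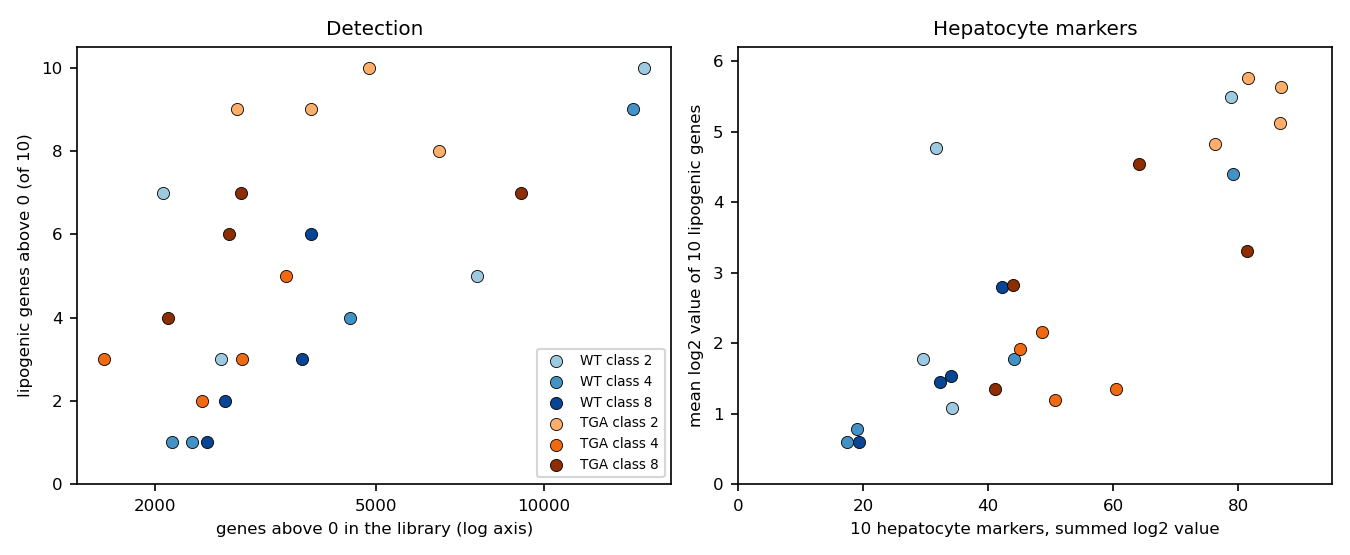
Each point is 1 library, coloured by group: on the left the number of the 10 lipogenic genes above 0 against the number of all genes above 0 (log axis), on the right the mean log2 value of the 10 genes against the summed log2 value of 10 hepatocyte markers. The 4 TGA class 2 libraries lie at 8 to 10 genes on the left, and at marker sums of 76.36 to 86.83 on the right.

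Srebf1, Mlxipl, Thrsp and Fasn are shown with the sequence before their start. The first 3 were above 0 in nested sets of libraries, and Fasn is a classical target of SREBP-1. Nesting was not particular to these 3 genes, as the 5 libraries with Acaca above 0 all had Srebf1 above 0 too. RefSeq entries (build GRCm38.p6) were found for 9 of the 10 genes, with 13 start sites among them. The 250 bases before each start were searched on both strands for the E-box CACGTG, which ChREBP and SREBP-1 can bind, the sterol regulatory element TCACNCCAC and its shorter core TCACCC, which overlaps it where N is C, and the CCAAT box of the factor NF-Y. Matches are in capitals.
Srebf1, chr11:60210472-60210721, minus strand: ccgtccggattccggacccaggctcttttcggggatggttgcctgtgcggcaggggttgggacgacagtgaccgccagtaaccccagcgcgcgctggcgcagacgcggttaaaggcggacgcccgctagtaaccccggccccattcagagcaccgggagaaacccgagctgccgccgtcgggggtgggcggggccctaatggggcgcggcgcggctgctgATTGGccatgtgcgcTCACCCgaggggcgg
Mlxipl, chr5:135089640-135089889, plus strand: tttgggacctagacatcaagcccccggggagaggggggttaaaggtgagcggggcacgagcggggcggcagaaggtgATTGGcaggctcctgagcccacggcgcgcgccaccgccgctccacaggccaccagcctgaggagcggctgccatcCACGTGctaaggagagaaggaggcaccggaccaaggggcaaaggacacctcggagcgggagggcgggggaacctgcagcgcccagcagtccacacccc
Thrsp, chr7:97417551-97417800, minus strand: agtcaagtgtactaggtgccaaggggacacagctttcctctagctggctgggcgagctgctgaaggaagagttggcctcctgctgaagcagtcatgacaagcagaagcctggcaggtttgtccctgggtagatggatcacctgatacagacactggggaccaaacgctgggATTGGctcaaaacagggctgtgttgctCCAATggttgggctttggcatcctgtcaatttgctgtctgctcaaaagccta
Fasn, chr11:120824548-120824797, minus strand: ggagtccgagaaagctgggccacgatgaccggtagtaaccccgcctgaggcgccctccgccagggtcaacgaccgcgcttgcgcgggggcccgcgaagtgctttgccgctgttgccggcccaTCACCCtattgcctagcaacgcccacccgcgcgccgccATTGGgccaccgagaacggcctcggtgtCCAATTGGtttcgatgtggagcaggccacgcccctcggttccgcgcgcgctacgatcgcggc
The Srebf1 stretch, upstream of 1 of its 3 starts, holds an inverted CCAAT box and a TCACCC core. That of Mlxipl (1 of 2 starts) holds an inverted CCAAT box and the E-box, and that of Thrsp a CCAAT box in each orientation. The Fasn stretch holds a TCACCC core and 3 CCAAT matches, of which an upright and an inverted one overlap in CCAATTGG. Over all 13 entries a CCAAT box was present in 7, against 33.9% of 32851 mouse entries, TCACCC in 3 against 13.8%, the E-box in 1 against 6.02% and TCACNCCAC in 1, the other start of Mlxipl, against 1.05%. A match describes the letters of the sequence, not a bound site.

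Among the regulators, Srebf1 had log2 values of 7.07, 7.33, 6.40 and 6.73 in TGA class 2 and was listed at 0 in all 4 libraries of TGA class 4. In TGA class 8 it had 0, 7.05, 0.85 and 2.29. The TGA class 2 libraries were all above those of class 4, while class 8 held both a value of the class 2 level and a 0. How many of all genes separate TGA classes in this way was not counted, here or for the genes below. Of all genes tested, 604 were lower and 118 higher in TGA class 4 than in TGA class 2 at an unadjusted p under 0.05 (limma). In WT, Srebf1 had 6.65, 7.40, 0 and 0 in class 2, 4.55, 0, 0 and 0 in class 4, and 0 in all 4 libraries of class 8, so the WT groups shared values of 0. The library with a value in WT class 4 was number 1, which had 14469 genes above 0.

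Mlxipl followed the same order in TGA. Its log2 values were 7.20, 7.14, 6.63 and 7.01 in class 2, 0 in all 4 libraries of class 4, and 7.23, 6.37, 1.61 and 6.08 in class 8. Class 2 and class 4 of TGA did not overlap, and 1 class 8 library exceeded every class 2 library. In WT, Mlxipl had 6.84, 6.49, 0 and 0.68 in class 2, 6.31, 0, 0 and 0 in class 4, and 0, 4.01, 0 and 0 in class 8.

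Thrsp had log2 values of 7.27, 7.22, 6.81 and 6.55 in TGA class 2, 0, 0, 0 and 4.93 in class 4, and 8.43, 7.27, 2.62 and 6.56 in class 8. In WT it had 7.29, 7.10, 6.40 and 0.91 in class 2, 6.35, 0, 0 and 0 in class 4, and 0, 3.71, 6.43 and 0 in class 8. Its highest value of all 24 libraries was thus in TGA class 8, in a library with only 2110 genes above 0. Srebf1 was above 0 in 10 libraries, Mlxipl in the same 10 and 3 more, and Thrsp in those 13 and 3 more. Srebf1 and Mlxipl were both above 0 or both at 0 in 21 libraries, as were Mlxipl and Thrsp. For Srebf1 and Thrsp this number was 18, as it was for Srebf1 and Fasn, and for Srebf1 and Gpam it was 19. Joint detection was therefore not particular to these 3 genes, and its share over all genes was not counted. All 3 were above 0 in 4 of 4 TGA class 2 and 3 of 4 TGA class 8 libraries, 2 of 4 WT class 2, 1 of 4 WT class 4, 0 of 4 WT class 8 and 0 of 4 TGA class 4 libraries. All 3 were at 0 in 8 libraries.

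**Figure D3:**
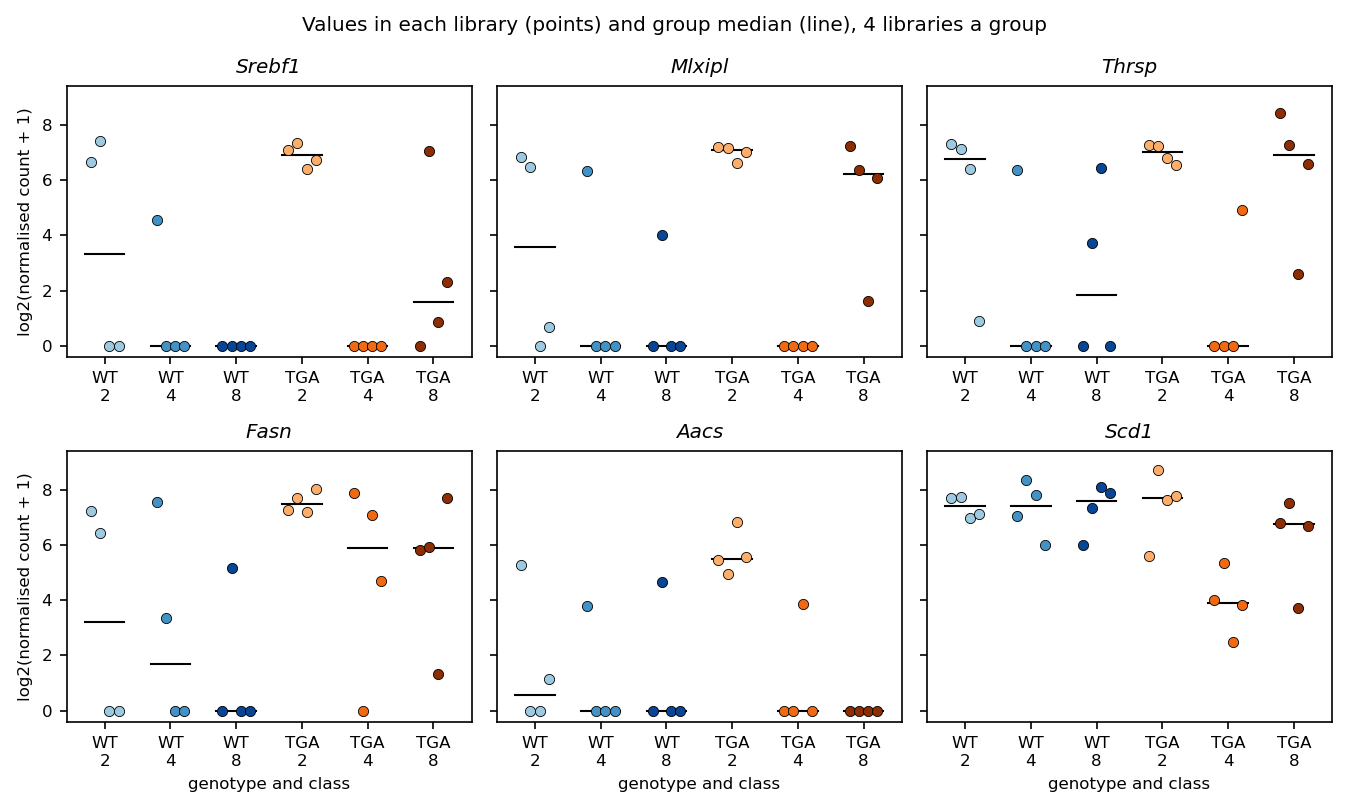
Values of 6 of the genes on the log2(normalised count + 1) scale, by genotype (WT, TGA) and class (2, 4, 8); points are libraries and lines are group medians of 4 libraries. Srebf1 and Mlxipl are at 0 in all TGA class 4 libraries, and Scd1 is above 0 in all 24.

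The comparison of class 4 with class 2 within TGA asks whether the genes differ between those classes in transgenic liver. Both transcription factors fell in class 4: the log2 difference was -6.89 for Srebf1 (SE 1.58) and -6.99 for Mlxipl (SE 1.64), each with an adjusted p of 0.0442 (limma, Benjamini-Hochberg over 4875 genes, 4 libraries a group). Because class 4 was listed at 0, these differences give no fold. The background of calls was 41 genes, all lower in class 4, which is 0.841% of those tested. Of the 10 lipogenic genes, 9 were tested, since Acaca was below the filter in every library, and 2 passed; 5 had an unadjusted p under 0.05, as did 14.8% of all genes. The other 7 did not pass: Thrsp differed by -5.73 (adjusted p = 0.0937), Aacs by -4.74 (0.0882) and Scd1 by -3.51 (0.141), and Fasn, Gpam, Acacb and Acly by -2.64, -2.34, -1.93 and -1.86 (adjusted p 0.476 to 0.641, limma). The median over the 9 was -3.51, beside -0.32 over all genes tested and -2.71 over the 10 hepatocyte markers, of which 10 were lower and 4 had an unadjusted p under 0.05; membership in the tested set itself depends on high values in some group.

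Both calls depended on which libraries and settings entered the fit. Without WT number 1 the adjusted p of both was 0.0204 (limma). It was over 0.05 without any other number of either genotype, and at most 0.168 for Srebf1 and 0.171 for Mlxipl, with differences of -7.05 to -6.74 and -7.12 to -6.93. When the fit included each library's number of detected genes, the differences were -6.50 and -6.56 (adjusted p = 0.111 for both, limma). Ttr, the hepatocyte marker transthyretin, also fell in this comparison (-6.69, SE 1.75, adjusted p = 0.0479, limma; called in 4 of 16 alternatives), the only hepatocyte marker to pass.

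The same comparison in WT called 0 genes of all tested (0%, limma), with 226 genes (4.64%) at an unadjusted p under 0.05. Of the 9 lipogenic genes tested, Thrsp alone had such a p, with a difference of -3.84 (SE 1.73, adjusted p = 0.999, limma). Whether the class difference itself differed between genotypes was tested as an interaction, which called 0 genes (0%; 309, or 6.34%, at an unadjusted p under 0.05, limma). It was -4.51 for Srebf1 (SE 2.24, adjusted p = 0.788), -5.07 for Mlxipl (SE 2.32, adjusted p = 0.767) and -4.08 for Aacs (SE 1.97, adjusted p = 0.775), so a difference between genotypes was not shown. Over both genotypes together, 1 lipogenic gene was called, Srebf1 (-4.63, SE 1.12, adjusted p = 0.0482, limma), beside 0.308% of all genes. Mlxipl had an adjusted p of 0.0752 and Thrsp of 0.0724. Without WT number 1 all 3 of these were called (adjusted p 0.0359 to 0.0487), and without any other number 0 were, with a highest adjusted p of 0.248 for Srebf1 (without WT number 2).

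**Figure D4:**
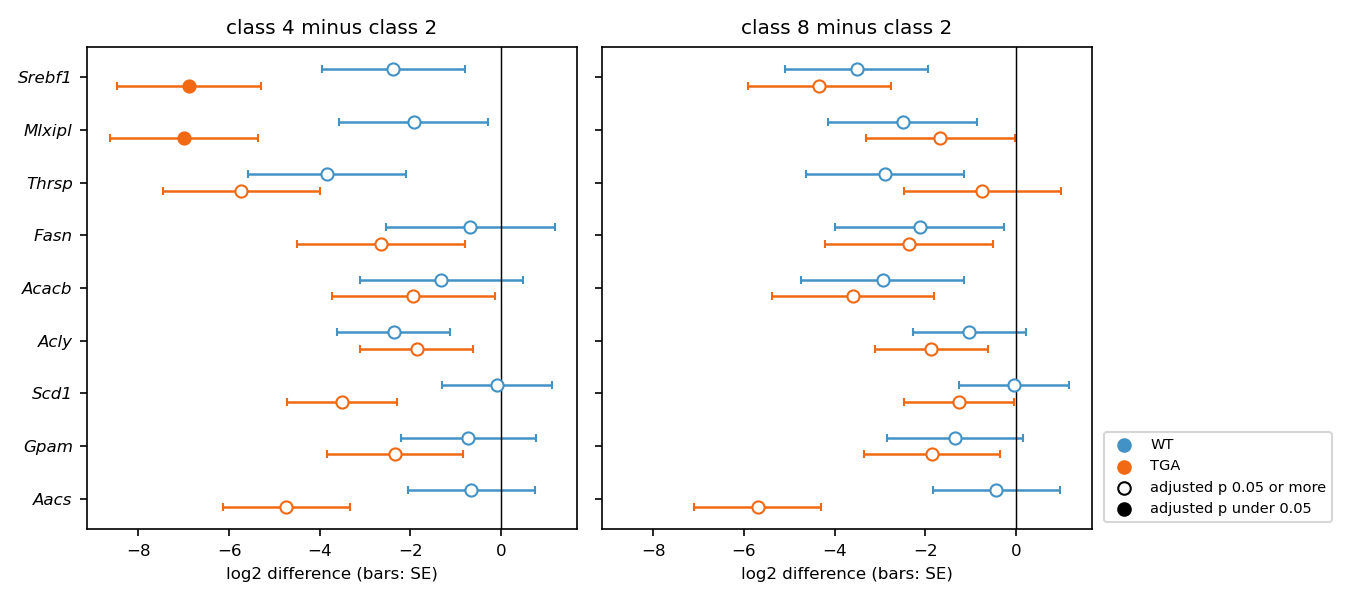
Log2 differences from class 2 for the 9 tested genes in class 4 (left) and class 8 (right), in WT and TGA, with standard errors; filled points have an adjusted p under 0.05 (limma). Srebf1 and Mlxipl in TGA class 4, at -6.89 and -6.99, are the filled ones.

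In TGA class 8 the median log2 value was 6.23 for Mlxipl and 6.92 for Thrsp, but 1.57 for Srebf1. In TGA class 2 these medians were 7.08, 7.01 and 6.90. Class 8 was not tested against class 4 within TGA. Class 8 against class 2 called 0 lipogenic genes in TGA (0% of all genes), with 348 genes (7.14%) at an unadjusted p under 0.05, and 0 in WT (0% of all genes), with 237 (4.86%; limma). In TGA the smallest p of the 9 belonged to Aacs, with a difference of -5.70 (SE 1.40, adjusted p = 0.137, limma). Its log2 values were 5.46, 4.95, 6.83 and 5.55 in class 2, 0, 0, 3.85 and 0 in class 4, and 0 in all 4 libraries of class 8. Class 2 of TGA was above both other classes without overlap. In WT, Aacs had 5.26, 0, 0 and 1.13 in class 2, 3.78, 0, 0 and 0 in class 4, and 0, 4.67, 0 and 0 in class 8. The interaction for Aacs was -5.26 (SE 1.97, adjusted p = 0.999, limma), in a test that called 0 genes (0%) and gave 198 (4.06%) an unadjusted p under 0.05.

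Srebf1 also had an unadjusted p under 0.05 in class 8 against class 2, in TGA (-4.34, SE 1.58, adjusted p = 0.413) as in WT (-3.51, SE 1.58, adjusted p = 0.947, limma). Over both genotypes, 0 lipogenic genes passed in class 8 against class 2, beside 0.0205% of all genes, and 3 had an unadjusted p under 0.05, as did 7.36% of all genes: Srebf1 (-3.92), Acacb (-3.27) and Aacs (-3.06), with adjusted p of 0.455, 0.482 and 0.480. Between class 8 and class 4 the unadjusted list was another one, Thrsp (2.97, SE 1.23) and Mlxipl (2.37, SE 1.16), both with higher values in class 8 and an adjusted p of 0.718 (limma; 0% of all genes called, 321 genes or 6.58% unadjusted). These 2 genes were above 0 in 4 of 4 TGA class 8 libraries, against 1 and 0 of 4 in TGA class 4. These comparisons share the class 2 or class 4 libraries and are not independent of those above.

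Among the enzymes, Fasn had log2 values of 7.26, 7.71, 7.20 and 8.03 in TGA class 2, 7.86, 0, 7.08 and 4.69 in TGA class 4, and 5.81, 5.92, 1.32 and 7.70 in TGA class 8. Unlike both transcription factors it was thus above 0 in 3 of 4 TGA class 4 libraries, and its classes overlapped. In WT it had 7.21, 6.43, 0 and 0 in class 2, 7.56, 3.37, 0 and 0 in class 4, and 0, 5.15, 0 and 0 in class 8. Over both genotypes it was above 0 in 16 libraries, which included all 10 that had Srebf1.

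Scd1, the desaturase, was the most often detected of the 10 genes. It was above 0 in 24 of 24 libraries, with log2 values of 7.68, 7.75, 6.95 and 7.10 in WT class 2, 7.03, 8.34, 7.79 and 5.98 in WT class 4, and 6.01, 7.32, 8.08 and 7.87 in WT class 8. The 3 WT classes overlapped. In TGA it had 5.61, 8.69, 7.63 and 7.76 in class 2, 4.01, 5.36, 2.48 and 3.81 in class 4, and 6.79, 7.50, 3.71 and 6.68 in class 8. All 4 TGA class 4 values were below all those of TGA class 2 and of WT class 4. They also lay not far above the commonest value above 0 of their own libraries, which was 3.57, 4.44, 1.75 and 2.26 (numbers 1 to 4). The gap was smallest in number 1 (4.01 against 3.57) and largest in number 4 (3.81 against 2.26). In WT class 4 that commonest value was 0.08, 1.32, 3.90 and 3.82. For TGA against WT in class 4 the difference was -3.37 (SE 1.22, adjusted p = 1, limma), where 0.0205% of all genes passed and 4.25% had an unadjusted p under 0.05. No lipogenic gene passed there.

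Both acetyl-CoA carboxylases were measured unequally. Acaca, the cytosolic form, was above 0 in 5 libraries, with log2 values of 0.08, 0.35, 0.67, 0.24 and 1.24. Acacb, the form at the mitochondrial membrane whose product also restrains fatty acid import, was above 0 in 15 libraries. Its log2 values were 3.20, 6.69, 6.93 and 5.11 in TGA class 2, 0, 7.22, 6.98 and 0 in TGA class 4 and 0, 5.45, 2.10 and 0 in TGA class 8. In WT it was above 0 in 3, 2 and 2 of 4 libraries of classes 2, 4 and 8. The levels of the carboxylases are not compared, because the values are not per length.

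Acly was above 0 in 6 libraries: in WT class 2 (2.18, 6.38 and 0.92), TGA class 2 (2.26 and 5.19) and WT class 8 (5.37). It was at 0 in all 8 class 4 libraries and all 4 of TGA class 8. Gpam was above 0 in 11 libraries, with log2 values of 4.48, 5.67, 2.42 and 4.46 in TGA class 2, 0, 6.53, 1.15 and 0 in TGA class 4, 0, 5.85, 0 and 3.81 in TGA class 8, and 5.35, 2.11 and 0.36 in the 3 WT libraries that held it. For Acly, class 4 against class 2 over both genotypes gave -2.12 (SE 0.88, adjusted p = 0.289, limma). Aacs (-2.70, adjusted p = 0.237) and Scd1 (-1.80, adjusted p = 0.348) also had an unadjusted p under 0.05 in that comparison, beside 13.6% of all genes.

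TGA was then compared with WT. In class 2, 0 lipogenic genes passed, beside 0.103% of all genes. Unadjusted p-values under 0.05, which 8.72% of all genes had, were found for 4 genes, all with higher values in TGA: Aacs (4.10, SE 1.40, adjusted p = 0.346), Fasn (4.14, SE 1.86, adjusted p = 0.544), Mlxipl (3.49, SE 1.64, adjusted p = 0.557) and Srebf1 (3.37, SE 1.58, adjusted p = 0.557, limma). WT numbers 3 and 4 of class 2 were at or below 1.13 for each of these 4 genes, and number 1 was between 5.26 and 7.21. Without WT number 1, Aacs passed (5.32, adjusted p = 0.0403, limma). Hepatocyte markers were higher in TGA in the same comparison: the median over the 10 was 4.27, beside 2.92 over the 9 lipogenic genes, and 8 had an unadjusted p under 0.05. Apoa1 rose by 4.47 (SE 0.89, adjusted p = 0.0147, limma; called in 9 of 16 alternatives). In class 8, where 0.0205% of all genes and 0 lipogenic genes passed, 3 had an unadjusted p under 0.05, as did 9.76% of all genes: Mlxipl (4.32, SE 1.64, adjusted p = 0.387), Thrsp (3.68, SE 1.73, adjusted p = 0.495) and Fasn (3.90, SE 1.86, adjusted p = 0.499, limma).

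When the 3 classes of a genotype and number were averaged first, leaving 4 means against 4, 0.492% of all genes and 0 lipogenic genes passed, and 8.88% of all genes had an unadjusted p under 0.05. Fasn had the smallest p of the 9 (3.40, SE 1.11, adjusted p = 0.213), followed by Gpam (2.21, SE 0.93, adjusted p = 0.445) and Mlxipl (2.08, SE 1.05, adjusted p = 0.555, limma). Fasn passed without WT number 1 (4.22, adjusted p = 0.0331). Beside these, Alb, Apoa1, Cps1 and Trf, all hepatocyte markers, rose in TGA in the same comparison, by 5.64, 3.71, 4.66 and 1.61 (adjusted p 2.73e-11 to 0.0222, limma). All p-values of this fit rest on a spread pooled over genes (152 prior against 6 residual degrees of freedom), and little on each gene's own 8 means. Alb, Apoa1 and Cps1 were called in 15 of 16 alternatives each and Trf in 9, with an adjusted p of up to 0.463 (limma).

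The wider pathway was described with 7 lists of 76 genes, of which 74 were in the table and 39 were tested. In class 4 against class 2 of TGA, 1 of the 39 passed: Khk, ketohexokinase, which feeds fructose into the pathway (-6.25, SE 1.56, adjusted p = 0.0442, limma; called in 5 of 16 alternatives). Its log2 values were 6.59, 5.91, 6.32 and 6.87 in TGA class 2, 0, 0, 0.70 and 0 in TGA class 4, and 0, 3.37, 0 and 4.60 in TGA class 8. Class 2 of TGA thus lay above both other classes. In the remaining 12 comparisons, 0 of the 39 passed.

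The other genes named here are among the 3 with the highest mean in each list, where tested, and none of them passed in that comparison. Of the elongation and desaturation genes, the desaturases Fads2 and Fads1 differed by -0.96 and -3.45 and the elongase Elovl6 by -1.33. Among upstream regulators, Srebf2, the sterol-synthesis relative of Srebf1, differed by -1.06, Ppargc1b, a coactivator of SREBP-1, by 0.95 and Insr, the insulin receptor, by -4.29 (adjusted p 0.143 to 0.738, limma). Srebf2 and Ppargc1b were above 0 in 24 of 24 libraries, those in which Srebf1 was at 0 included.

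In triglyceride synthesis, Lpin1 and Lpin2, which make diacylglycerol, differed by -1.96 and -2.61 and Agpat3 by -0.96. For the supply of acetyl-CoA and NADPH, Idh1 differed by -0.46, Acss2 by 0.45 and the malic enzyme Me1 by 1.55. Of the lipid droplet proteins, Plin5 differed by -0.39 and G0s2, an inhibitor of fat breakdown, by -2.85. The ketone body enzyme Bdh1 differed by -1.56. The list medians were -2.34 for sugar-responsive enzymes, -1.93 for elongation and desaturation, -1.77 for ketone and malonyl-CoA use, -1.62 for lipid droplet, -0.96 for triglyceride synthesis, -0.72 for upstream regulators and 0.45 for acetyl-CoA and NADPH supply, beside -0.32 over all genes tested.

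By likeness of pattern, measured as Pearson's r over 24 libraries with the mean log2 value of the 10 genes, the nearest tested gene was Gckr (r = 0.93, Spearman's rho = 0.81). Itih4 (r = 0.88, rho = 0.87), Scyl3 (r = 0.85), Tma7 (r = 0.84) and Nrd1 (r = 0.84) followed, against a median r of 0.10 over the 4866 tested genes outside the set. Gckr was above 0 in 4 of 4 TGA class 2, 0 of 4 TGA class 4 and 3 of 4 TGA class 8 libraries, and in 3, 1 and 1 of 4 in WT classes 2, 4 and 8. The points share library, normalisation and detection limit, so these values are a description only.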

How the data were processed

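RNA from 24 mouse liver libraries was analysed. Per the labels' protocols, RNA came from a kit for fixed, embedded tissue and was made into NuGen libraries. TopHat, edgeR and build mm9 are named in the submitters' processing notes; their versions, the counting and the annotation are not known here. The authors' deposited table was taken to hold natural log values of a quantile-normalised count plus 1, an inference from the values: the highest was identical in 20 of 24 libraries. WT numbers 2, 3 and 4 of class 4 and WT number 1 of class 8 did not share it. What this means for comparisons with these groups was not tested.

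Dividing by the natural log of 2 gave log2 values. The tested genes (4875 of 35974) reached a deposited 1 in 4 or more libraries. limma-trend (limma 3.58.1, R 4.3.3) was fitted with 1 mean per group over 24 libraries, or to 8 means of genotype and number for TGA against WT over all classes. Benjamini-Hochberg adjustment covered all genes tested, with a threshold of 0.05. In the fit to 8 means the prior weighed 152 degrees of freedom against 6 residual ones, so its p-values rest on the pooled spread. The script was tested on simulated data. Alternatives were other filters, centring, a covariate, other priors, a replicate block, and leaving out libraries.

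Genes named are the 10 lipogenic genes, pathway genes past the threshold, the 3 of highest mean per list (some are not reported here), and the 5 most like the set; Alb, Apoa1, Cps1, Trf and Ttr are fixed hepatocyte markers. Differences are given for class 4 against 2 in TGA and where an unadjusted p was under 0.05. Genes and lists were chosen with earlier results of these data known. Promoters were matched by symbol in RefSeq, build GRCm38.p6.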

Additional observations from a re-analysis of the deposited data

Results flagged for a closer look

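Of 66 sets of 4 libraries examined (10 genes and the number of genes detected, in 6 groups), 16 held a library far from the other 3. In 14 of them the other 3 libraries were at 0, so a single detected value is enough. The count of 16 is therefore not set against a chance rate. WT number 1 class 4 stood above its group for Srebf1 (4.55), Mlxipl (6.31), Thrsp (6.35), Acaca (0.35) and Aacs (3.78), and WT number 1 class 2 for Acaca (0.08) and Gpam (5.35). WT number 2 class 8 stood above its group for Mlxipl (4.01), Fasn (5.15) and Aacs (4.67), and WT number 4 class 8 for Acly (5.37). Thrsp in WT class 2 was low in number 4 (0.91). In TGA, Thrsp was high in number 4 class 4 (4.93), Aacs in number 3 class 4 (3.85) and Acaca in number 3 class 8 (1.24), and the latter library had 9096 genes above 0, far from the others of its group.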

How the results depend on the processing

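The 9 tested lipogenic genes kept the direction of every difference given for them under all alternatives run, but few calls held. In class 4 against class 2 of TGA, where 2 were called, the count was 0 with no filter, after centring, with genes detected as a covariate and with a robust prior, and 4 (Srebf1, Mlxipl, Thrsp and Aacs) without the 4 libraries over 7000 genes. Leaving out 1 genotype and number gave 0 to 3. Srebf1 was called in 5 of 16 alternatives (adjusted p 0.0138 to 0.173) and Mlxipl in 5 (0.00902 to 0.184). Over both genotypes, where 1 was called, it was 0 with no filter, centring, the covariate, a prior without trend or a robust prior, and 3 with the stricter filter, the replicate block or without libraries over 7000 genes; leaving out 1 number gave 0 to 3. The count rose from 0 to 1 in TGA against WT in class 2 (0 to 1 over the numbers left out) and over all classes (0 to 1, and 1 without libraries over 7000 genes). The block moved no other count of lipogenic genes. Replicate numbers were not used as pairs in the main fit, though libraries that share a genotype and number may come from 1 animal. Of 24 pairs of classes within a genotype, 2 had correlated deviations over 0.1 (highest 0.432, WT number 1, classes 2 and 4). In 12 of the 24 the best match among 4 numbers was the library's own. Of 12 pairs of genotypes these counts were 0 and 1. These values do not show that classes within a genotype are unpaired. Over all genes, the 41 calls in TGA became 0 with no filter, 1 with centring, the covariate or a robust prior, 63 with the block and 79 without libraries over 7000 genes, and 0 to 66 when 1 number was left out; the 15 over both genotypes became 0, 4, 3, 4, 23 and 32 in that order of settings, 36 with the stricter filter, and 1 to 20. Centring moved the median of all genes in TGA from -0.32 to 0.24. Of the uncalled pathway genes, Idh1 and Plin5 changed sign with centring (0.10 and 0.17), and with 1 number left out Idh1 ranged from -0.75 to 0.14, Acss2 from -0.25 to 1.17, Me1 from -0.13 to 2.20, Agpat3 from -2.53 to 0.58 and Plin5 from -1.80 to 0.59. The causes were not tested, and with depth unknown no detection limit can be given.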
